A study of Homo sapiens with 10 samples.

Results

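The genes described here encode the subunits of the oxidative phosphorylation system that are made from nuclear DNA. They were chosen by symbol: the NDUFA, NDUFB, NDUFC, NDUFS and NDUFV genes of complex I, SDHA to SDHD of complex II, CYC1 and the UQCR genes of complex III, the cytochrome c oxidase genes COX4I1 to COX8A of complex IV, and the ATP5F1, ATP5M and ATP5P genes of ATP synthase (complex V). Pseudogenes and assembly factors were left out. The rule found 80 protein-coding genes among the 59204 genes of the tables, and all 80 passed the minimum of a mean count of 20 in both total and labelled RNA. Complex I had 36 of them, complex II 4, complex III 10, complex IV 12 and complex V 18. NDUFA4 was counted with complex IV, where its protein is found. UQCRHL and ATP5MGL are protein-coding copies of UQCRH and ATP5MG, and reads may have been split between such near-identical genes.

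The respiratory chain passes electrons from NADH (through complex I) and succinate (through complex II) to complex III, cytochrome c and complex IV, and complexes I, III and IV pump protons across the inner mitochondrial membrane. ATP synthase uses the returning protons to make ATP. A few core subunits are encoded by mitochondrial DNA, whereas all of complex II and most of the other complexes are made from nuclear genes, so that 2 genomes must supply matched parts.

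K562 is an established human chronic myeloid leukaemia line with erythroid features. The cells took up the nucleoside 4-thiouridine at 30 µM for 12 h, with fresh medium every 3 h, so that RNA made in that time was labelled. They were then chased with 3 mM uridine in the presence of DMSO (the solvent control), 1 µM JQ1, a blocker of BET bromodomains, or 1 µM AZ-5576, an inhibitor of the elongation kinase CDK9. There was 1 library at 0 h, shared by all arms, and 1 library per arm at each of 2, 4 and 8 h. All cells, controls included, had been through the labelling and the washes, and all cells after 0 h through the uridine chase. The labels name no separate cultures.

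Total reads are all human reads of a gene, and labelled reads are the reads deposited as nascent, taken here to carry the T-to-C changes that mark 4-thiouridine. Libraries were made from the 3′ end of mRNA, one read per transcript end, so counts per 1000000 reads of a library (CPM) compare genes without a length term. The libraries held 10293371 to 16008906 total reads, of which 2031796 to 3868420 were labelled, and 1208073 to 2366155 reads of added fly RNA. Levels over time are given as fly-scaled reads, the reads of a gene per 1000000 fly reads of its library. The fly RNA was added at 5% to purified RNA, so these levels are relative to RNA mass and not to cell number. A change in cell number or in total RNA per cell would thus not show in them. The erythroid genes HBG1 (59843 to 96862 reads) and GATA1 (322 to 1830 reads) were read in every library, against at most 8 reads of the T cell gene CD3E and 2 of the B cell gene MS4A1. In the fly genes, the first principal component held 61.3% of the variance over 2069 genes, on which the AZ-5576 2 h library stood apart at 20.3, the 0 h library lay at 11.6 and the other 8 lay between -7.67 and 4.69.

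Slopes below are log2 units per hour from edgeR's quasi-likelihood test, with fly reads as the scale, a common 0 h level and one straight line per arm. A slope difference below 0 is the loss per hour, in log2 units, beyond that in the reference arm. With n = 1 per condition no difference has a replicate check, and the standard errors (SE) and adjusted p-values measure the scatter of the 10 libraries about these lines. Counting intervals are exact at 95% and cover counting error only, since reads are not independent molecules.

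Together the 80 genes held 3.23% of all human reads at 0 h. With time (2, 4, 8 h) DMSO gave shares of 3.03%, 2.94% and 2.66%, JQ1 3.19%, 3.03% and 2.79%, and AZ-5576 3.26%, 3.40% and 3.73%. The share thus ended below its start in DMSO and JQ1 and above it in AZ-5576, while the summed reads per fly read were below the start at 8 h in all arms. DMSO then stood at 91.5% of 0 h, JQ1 at 84.0% and AZ-5576 at 76.1%. For all human reads the same values were 111%, 97.1% and 65.8%.

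At 0 h the single genes spanned a range from 8.9 CPM for ATP5MGL to 1852 for ATP5MG, the g subunit of the ATP synthase membrane part. The genes with most reads in the other complexes were NDUFB9 (879.7 CPM, complex I), SDHB (89.6, complex II), UQCRH (1625, complex III) and COX4I1 (1519.5, complex IV). No gene of complex II reached 100 CPM. NDUFS1, the large iron-sulphur subunit of complex I, had 14.9 and was the lowest after ATP5MGL.

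Complex II, succinate dehydrogenase, was lower under AZ-5576 than under DMSO in all 4 of its genes. Over all genes tested, 73.3% were called lower in this comparison, so a call under AZ-5576 was the common state. By GENCODE v29 (GRCh38), SDHA lies at chr5:218241-256700, SDHB at chr1:17018722-17054170, SDHC at chr1:161314257-161375340 and SDHD at chr11:112086773-112120013. SDHA, the flavoprotein that oxidises succinate, had 567 fly-scaled total reads at 0 h, while DMSO gave 646, 640 and 697, JQ1 469, 554 and 814 and AZ-5576 588, 421 and 292. The 3 values are those at 2, 4 and 8 h, here and below. All 3 AZ-5576 values of SDHA were below every DMSO value, and so were the JQ1 values at 2 and 4 h. At 8 h SDHA stood at 41.9% of DMSO under AZ-5576 (interval 38.1% to 46.0%) and at 117% under JQ1 (108% to 126%). Named pseudogene copies of SDHA held 10.1% as many reads as SDHA, and whether reads were split between them was not tested.

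SDHB, the iron-sulphur subunit, had 733 at 0 h, while DMSO gave 924, 786 and 937, JQ1 821, 672 and 770 and AZ-5576 663, 729 and 456. SDHC, a membrane anchor, had 701 at 0 h, while DMSO gave 819, 759 and 714, JQ1 770, 640 and 528 and AZ-5576 681, 688 and 435. SDHD, the other anchor, had 371 at 0 h, while DMSO gave 503, 423 and 735, JQ1 501, 488 and 587 and AZ-5576 337, 482 and 275. In each of these genes the AZ-5576 8 h library was the lowest of the 10. The slope differences to DMSO were -0.151 ± 0.034 (SE) for SDHA, -0.138 ± 0.037 for SDHD, -0.115 ± 0.031 for SDHB and -0.081 ± 0.030 for SDHC, with adjusted p-values of 0.00048, 0.0021, 0.0023 and 0.020. With the normalization of edgeR's trimmed mean of M values (TMM), which centres on the human genes, all 4 differences were above 0, between 0.023 for SDHA and 0.094 for SDHC. Under JQ1 none of the 4 passed the test, with slope differences between -0.055 and 0.003.

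The promoters of SDHA, SDHB and SDHD are shown because complex II was low in all its genes at once and because these sequences hold motifs linked to respiratory genes. The windows run from 250 bases before to 50 bases after a transcription start listed by RefSeq (GRCh38.p14), are written 5′ to 3′ on the strand of the gene, and carry motif matches in capitals. The motifs searched on both strands were that of NRF1, a regulator of respiratory genes (GCGCA and GCGC with any single base between them), then CCGGAAG for ETS factors such as GABP, and AAGATGGC for YY1. UQCR11, a small subunit of complex III that was not called under AZ-5576, is added for comparison. No window was matched for SDHC. The 4 genes shown were picked after their matches and slopes were seen.
SDHA (chr5:218070-218369, plus strand): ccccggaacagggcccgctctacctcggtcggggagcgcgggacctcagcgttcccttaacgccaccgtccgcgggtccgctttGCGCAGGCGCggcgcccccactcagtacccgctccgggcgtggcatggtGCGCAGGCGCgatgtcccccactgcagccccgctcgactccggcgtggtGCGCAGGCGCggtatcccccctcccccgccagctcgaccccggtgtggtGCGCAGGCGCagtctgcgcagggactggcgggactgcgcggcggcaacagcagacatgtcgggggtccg
SDHB (chr1:17053983-17054282, minus strand): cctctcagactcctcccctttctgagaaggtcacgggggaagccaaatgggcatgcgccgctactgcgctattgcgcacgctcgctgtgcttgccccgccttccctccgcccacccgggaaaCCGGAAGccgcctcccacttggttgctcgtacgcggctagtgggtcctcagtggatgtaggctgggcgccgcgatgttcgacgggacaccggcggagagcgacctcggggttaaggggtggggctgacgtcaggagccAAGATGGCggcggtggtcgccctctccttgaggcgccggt
SDHD (chr11:112086623-112086922, plus strand): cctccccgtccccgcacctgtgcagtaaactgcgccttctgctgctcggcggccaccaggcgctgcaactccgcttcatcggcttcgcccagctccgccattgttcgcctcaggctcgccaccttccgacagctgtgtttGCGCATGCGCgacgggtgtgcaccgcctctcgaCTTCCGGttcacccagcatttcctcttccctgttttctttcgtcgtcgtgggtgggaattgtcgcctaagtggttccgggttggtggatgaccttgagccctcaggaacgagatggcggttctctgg
UQCR11 (chr19:1605413-1605712, minus strand): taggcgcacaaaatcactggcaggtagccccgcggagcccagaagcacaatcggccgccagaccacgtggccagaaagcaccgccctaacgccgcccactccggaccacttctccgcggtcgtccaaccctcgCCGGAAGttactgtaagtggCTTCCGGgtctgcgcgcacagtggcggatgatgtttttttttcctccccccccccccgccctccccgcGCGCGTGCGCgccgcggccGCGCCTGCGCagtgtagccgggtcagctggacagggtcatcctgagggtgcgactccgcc

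The SDHA window held 4 NRF1 matches, the SDHB window 1 ETS and 1 YY1 match, the SDHD window 1 NRF1 and 1 ETS match, and the UQCR11 window 2 NRF1 and 2 ETS matches. UQCR11 had 4539 fly-scaled total reads at 0 h, 4611, 3758 and 3687 in DMSO, and 4991, 3734 and 3506 in AZ-5576, which was 95.1% of DMSO at 8 h (interval 92.1% to 98.3%). A promoter was matched for 65 of the 80 genes. An NRF1 match was in 24.6% of these 65, against 6.28% of 27305 promoters of the same length. An ETS match was in 30.8% against 10.7%, a YY1 match in 16.9% against 3.03%, and any of the 3 in 58.5% against 17.9%. Among genes called lower under AZ-5576 (18 with a promoter) and the others (47), an NRF1 match was in 33.3% and 21.3%, an ETS match in 22.2% and 34.0%, and a YY1 match in 22.2% and 14.9%. The 27305 promoters were not limited to genes tested here, so the shares in expressed genes as a whole are not known. A match is a stretch of letters, and binding was not measured.

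Over all complexes, 23 of the 80 genes were lower under AZ-5576 than under DMSO and none was higher, against 73.3% lower and 0.559% higher of the 11797 genes tested. The median slope difference was -0.028 over the 80 genes and -0.194 over all genes. With TMM scaling, which moved the median of all genes to -0.020, 66 of the 80 genes were higher and 1 lower, against 20.6% higher and 27.6% lower over all genes. With human library totals as the scale 50 were higher and 10 lower, against 7.23% and 53.1%. The median of the 80 genes was thus above that of all genes on each of these scales. The calls rest on the 8 h libraries: 9 genes were called without the DMSO 8 h library, 4 without the AZ-5576 8 h library and 3 (COX7A2L, NDUFS1 and UQCRFS1) without all 8 h libraries. Over all genes tested, 6066 of 11663, 3941 of 11831 and 3815 of 11617 were called lower in the same fits. In a model with 1 level per time and 1 term per inhibitor, none of the 80 was called by edgeR. Over all genes, that model called 2.38% lower and 0.0848% higher.

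**Figure D1:**
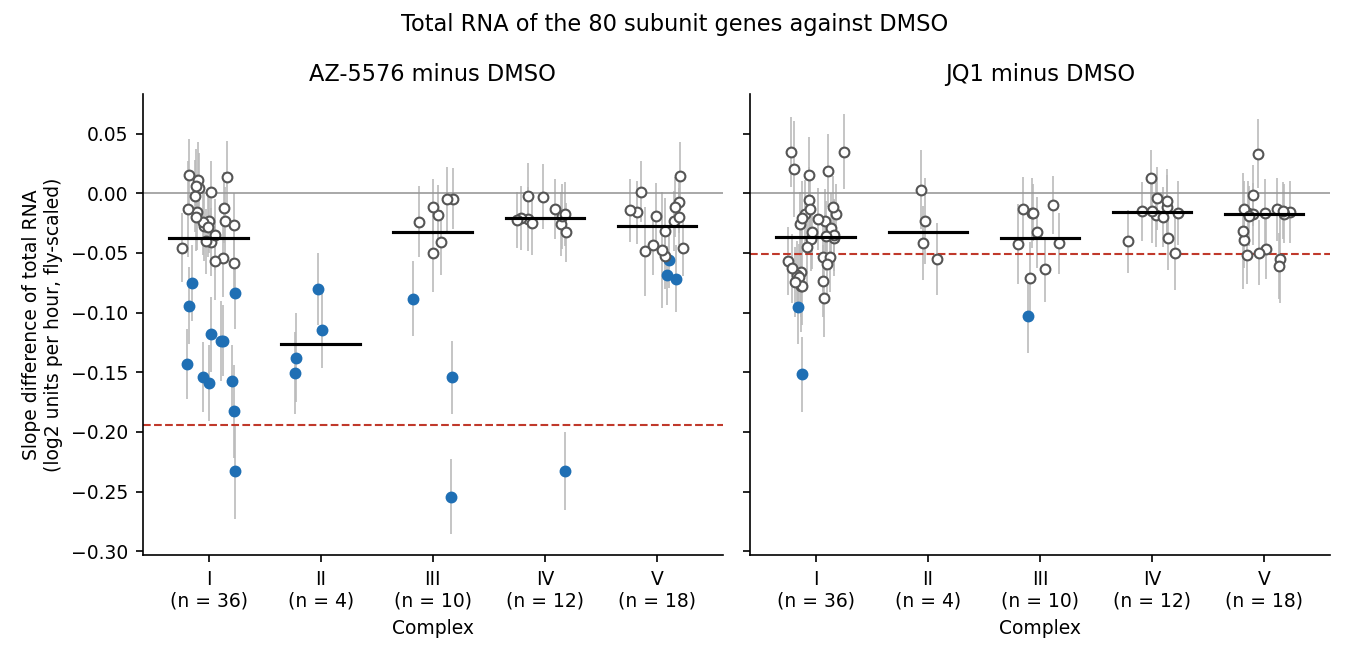
Slope difference of total RNA to DMSO (log2 units per hour, fly-scaled) for each of the 80 genes by complex, with SE bars, for AZ-5576 and JQ1. Filled points passed the adjusted threshold, black bars are medians of a complex and the red dashed line is the median of all genes tested (-0.194 and -0.051). With TMM scaling 66 of the 80 AZ-5576 differences were called above 0.

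Complex I transfers electrons from NADH to ubiquinone. Of its 7 core nuclear subunits, which carry the flavin and iron-sulphur centres or shape the quinone site, 4 were lower under AZ-5576, NDUFS1, NDUFS3 and NDUFV2 among them, and the median slope difference was -0.143. Of its 29 accessory subunits 8 were lower, with a median of -0.027. With TMM scaling most of these genes lay above 0, as stated for all 80. These medians describe the 2 groups, and the difference between them was not tested.

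NDUFS1 (chr2:206114817-206159603) had 122 fly-scaled total reads at 0 h, while DMSO gave 163, 226 and 298, JQ1 151, 149 and 212 and AZ-5576 140, 96 and 87. Its DMSO values went up at each step while the AZ-5576 values at 4 and 8 h were below the start. At 8 h NDUFS1 was at 29.1% of DMSO under AZ-5576 (interval 24.6% to 34.3%), with a slope difference of -0.233 ± 0.040 (adjusted p = 2.1e-05) that was also below 0 by human library totals (-0.143).

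NDUFV1, the subunit that binds NADH and flavin, was not called. It had 1896 fly-scaled reads at 0 h, while DMSO gave 2094, 1621 and 1595, JQ1 1479, 1488 and 1181 and AZ-5576 2223, 1538 and 1251. Its 8 h value under AZ-5576 was 78.4% of DMSO (interval 74.4% to 82.6%), with a slope difference of -0.035 ± 0.030. Thus 2 core subunits of the same peripheral arm, NDUFS1 and NDUFV1, stood at 29.1% and 78.4% of DMSO in the same pair of libraries.

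Among the accessory subunits, NDUFA10 had 393 at 0 h, while DMSO gave 353, 341 and 563, JQ1 296, 286 and 397 and AZ-5576 375, 230 and 180, or 31.9% of DMSO at 8 h (interval 28.4% to 35.8%). NDUFA8, a small protein of the intermembrane space side, had 1661 at 0 h, while DMSO gave 1740, 1476 and 1644, JQ1 1756, 1283 and 1349 and AZ-5576 1749, 1111 and 770 (46.8% of DMSO at 8 h). NDUFA9 had 1107 at 0 h, while DMSO gave 1271, 1134 and 1147, JQ1 841, 854 and 729 and AZ-5576 1228, 792 and 582. NDUFA9 was below every DMSO value in all 3 JQ1 libraries.

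Other accessory genes ended near their DMSO level. NDUFA13, also known as GRIM-19, had 2658 at 0 h, while DMSO gave 3103, 2345 and 1904, JQ1 1788, 2188 and 1711 and AZ-5576 3226, 2457 and 1992, and NDUFA11 had 1950 at 0 h, while DMSO gave 2252, 1550 and 1325, JQ1 1637, 1467 and 1193 and AZ-5576 2376, 1616 and 1426. At 8 h they stood at 105% (100% to 109%) and 108% (102% to 114%) of DMSO under AZ-5576. NDUFA3, at 755 at 0 h, 574 in DMSO at 8 h and 562.1 in AZ-5576 at 8 h, was at 97.9% (90.2% to 106%). NDUFB3 did not end near its DMSO level, though it was the only one of the 80 genes whose AZ-5576 slope from 0 h was above 0 (0.045 ± 0.039, adjusted p = 0.29). It had 578 fly-scaled reads at 0 h, while DMSO gave 773, 671 and 1019, JQ1 876, 1004 and 933 and AZ-5576 530, 1124 and 748. At 8 h NDUFB3 was at 73.4% of DMSO under AZ-5576 (interval 68.7% to 78.4%). It was singled out after its values were seen.

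Complex III passes electrons from ubiquinol to cytochrome c. Both of its nuclear catalytic subunits, UQCRFS1 and CYC1, were lower under AZ-5576, as was 1 of its 8 accessory subunits (UQCRC2). UQCRFS1 (chr19:29205321-29213541), the Rieske iron-sulphur protein, had the lowest slope difference of the 80 genes. It stood at 1187 fly-scaled reads at 0 h, while DMSO gave 1477, 1601 and 1582, JQ1 1173, 1088 and 1211 and AZ-5576 1206, 741 and 382. The first AZ-5576 value was close to the start and the last was 24.2% of DMSO (interval 22.4% to 26.0%). The slope difference was -0.254 ± 0.031 (adjusted p = 4.4e-07), and it was also called below 0 with TMM scaling (-0.080), the one gene of the 80 for which this held.

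CYC1, cytochrome c1, had 1474 at 0 h, while DMSO gave 1427, 976 and 1167, JQ1 1115, 828 and 647 and AZ-5576 1370, 1041 and 608. At 8 h it was at 52.1% of DMSO under AZ-5576 and 55.4% under JQ1. Its AZ-5576 difference of -0.088 was 0.086 with TMM scaling and 0.0016 with human library totals. UQCR10 had 2012 at 0 h, while DMSO gave 2050, 1703 and 1508, JQ1 1753, 1507 and 1051 and AZ-5576 2182, 1579 and 1142, and it was not called in either inhibitor comparison. UQCRH, the hinge protein that helps cytochrome c dock, ran at 13287 at 0 h, while DMSO gave 15048, 13490 and 11991, JQ1 12251, 12230 and 11783 and AZ-5576 14854, 12565 and 11463. All 8 h values of UQCRH lay within a narrow band, and AZ-5576 stood at 95.6% of DMSO (93.9% to 97.3%).

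Complex IV, cytochrome c oxidase, had 1 of its 12 genes called lower under AZ-5576. That gene was COX7A2L (chr2:42333546-42425088), also known as SCAF1, which joins complexes III and IV into supercomplexes. It had 289 at 0 h, while DMSO gave 414, 442 and 753, JQ1 357, 363 and 598 and AZ-5576 274, 238 and 209. DMSO and JQ1 values were all above the start and AZ-5576 values all below it. COX7A2L was at 27.8% of DMSO at 8 h under AZ-5576 (interval 25.02% to 30.85%), with a slope difference of -0.233 ± 0.033 (adjusted p = 2.2e-06).

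Its relative COX7A2, a bona fide oxidase subunit, had 2508 at 0 h, while DMSO gave 2496, 2259 and 2051, JQ1 2145, 2035 and 2165 and AZ-5576 2606, 2024 and 1886, or 92.0% of DMSO at 8 h (88.0% to 96.1%). COX4I1, a regulatory subunit, had 12425 at 0 h, while DMSO gave 13372, 12450 and 11020, JQ1 11289, 11159 and 10849 and AZ-5576 15121, 11571 and 10003. At 8 h it was at 90.8% of DMSO (89.1% to 92.5%). The median slope difference of complex IV was -0.021, with the fly scale, and its lowest value after COX7A2L did not pass the test.

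ATP synthase had 3 of 18 genes called lower under AZ-5576, 2 of them in the F1 head and central stalk (ATP5F1B and ATP5F1C, the catalytic beta and the rotating gamma subunit) and ATP5PB of the peripheral stalk. ATP5F1C had 1268 at 0 h, while DMSO gave 1456, 1403 and 1509, JQ1 1514, 1294 and 1382 and AZ-5576 1259, 1337 and 948 (62.8% of DMSO at 8 h). Its difference of -0.072 was above 0 with TMM scaling (0.103). None of the 6 accessory membrane subunits was called, with a median of -0.017.

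The 3 genes of the c ring encode one and the same mature protein behind different import sequences. ATP5MC3 had 10873 fly-scaled reads at 0 h, while DMSO gave 12246, 9764 and 9403, JQ1 10549, 9084 and 7652 and AZ-5576 10145, 9682 and 7120. ATP5MC2 had 7265, while DMSO gave 8286, 6588 and 5724, JQ1 6626, 6085 and 4489 and AZ-5576 8062, 6426 and 4924. ATP5MC1 had 2788, while DMSO gave 2920, 2272 and 2308, JQ1 2358, 2109 and 1632 and AZ-5576 3109, 2107 and 1874. The order of their levels was the same in every library, and none was called lower than DMSO, with slope differences of -0.045, -0.023 and -0.031 under AZ-5576 and -0.039, -0.047 and -0.061 under JQ1. With TMM scaling the AZ-5576 differences were 0.130, 0.152 and 0.144.

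ATP5MG had 15146 at 0 h, while DMSO gave 16701, 16479 and 15102, JQ1 15538, 13572 and 14932 and AZ-5576 17492, 12445 and 12434 (82.3% of DMSO at 8 h, interval 81.0% to 83.7%). ATP5PD, the d subunit of the peripheral stalk, had the highest slope difference of complex V (0.015 ± 0.029), close to that of NDUFA11 (0.015 ± 0.030), the highest of the 80 genes. It had 1533 at 0 h, while DMSO gave 1928, 1602 and 1460, JQ1 1804, 1807 and 1786 and AZ-5576 1502, 1947 and 1558, or 107% of DMSO at 8 h (101% to 112%).

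**Figure D2:**
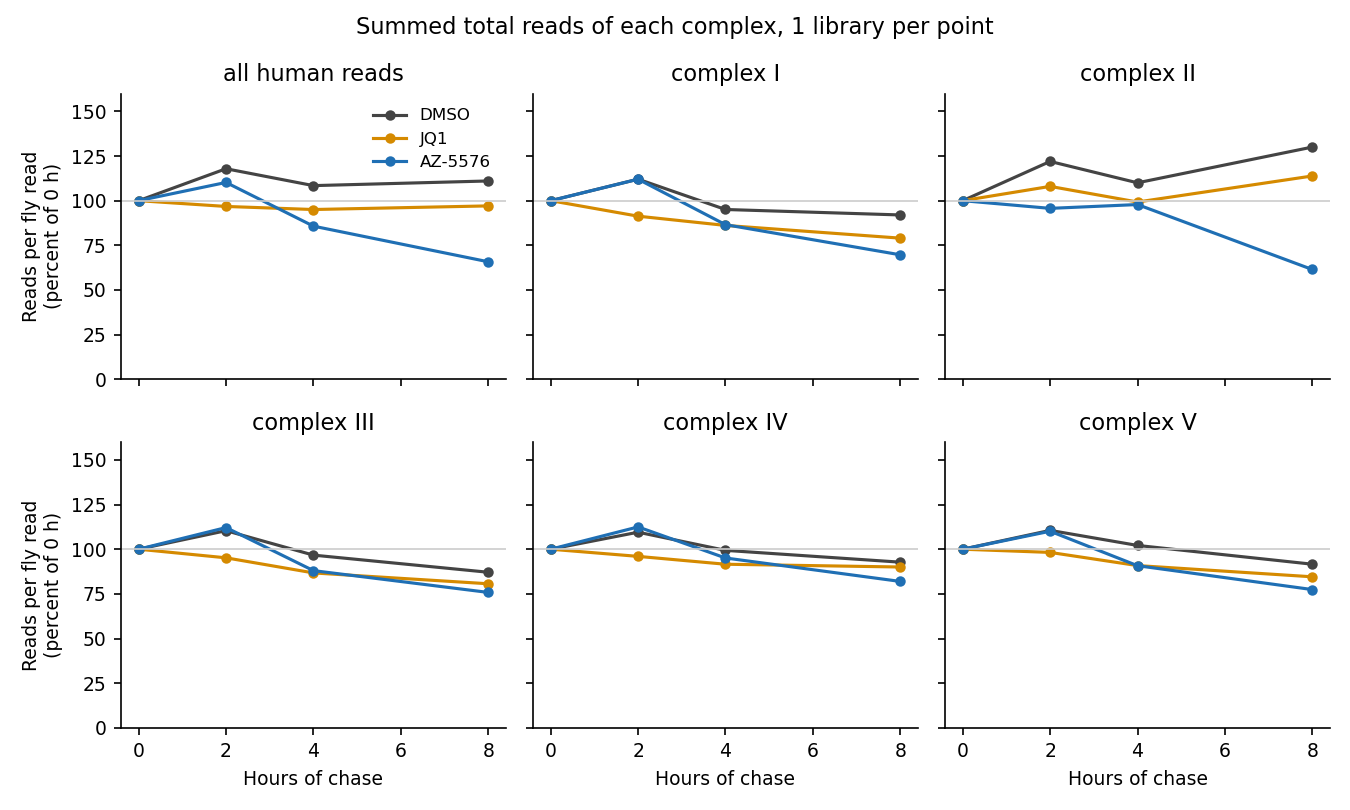
Summed total reads per fly read as percent of 0 h over hours of chase, for all human reads and for the genes of each complex, with 1 library per point. Complex II ended at 130% of 0 h in DMSO and 61.5% in AZ-5576, while complexes I, III, IV and V ended between 87.1% and 92.8% in DMSO and between 69.7% and 82.0% in AZ-5576; as a share of human reads the 80 genes went from 3.23% to 3.73% in AZ-5576.

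Summed over genes, complex II under AZ-5576 stood at 47.3% of DMSO at 8 h. Complex I stood at 75.7%, complex III at 87.0%, complex IV at 88.4% and complex V at 84.5%, and all human reads at 59.3%. Sums are weighted by the most abundant genes. Gene by gene, the median of the 80 ratios to DMSO went from 98.7% through 92.7% to 82.7% with time, and that of all genes tested from 84.0% through 63.0% to 32.2%.

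**Figure D3:**
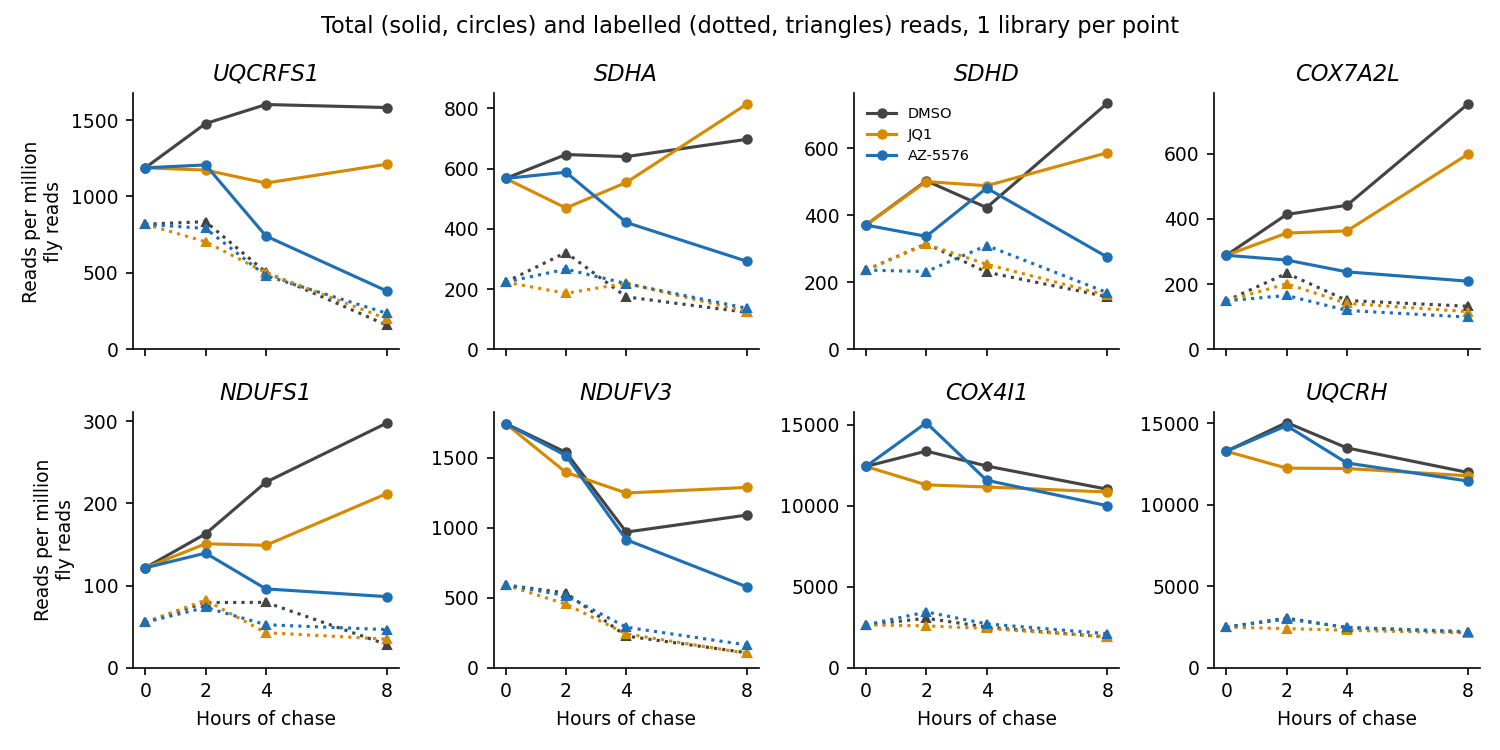
Fly-scaled total reads (solid lines, circles) and labelled reads (dotted lines, triangles) over hours of chase for 8 genes, with 1 library per point and the 0 h library shared. In total reads UQCRFS1, SDHA, SDHD, COX7A2L, NDUFS1 and NDUFV3 ended lower in AZ-5576 than in DMSO, whereas COX4I1 and UQCRH ended at 90.8% and 95.6% of DMSO.

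JQ1 was set against DMSO to ask what BET inhibition did to the same genes. It lowered 3 of the 80, CYC1 and NDUFA9 among them, and raised none, against 16.2% lower and 1.79% higher over all genes tested. The slope differences of CYC1 and NDUFA9 were -0.103 ± 0.031 and -0.095 ± 0.031, with adjusted p-values of 0.024 and 0.035. The median difference was -0.028 over the 80 genes and -0.051 over all genes. With TMM scaling 5 of the 80 were higher and 1 lower, against 5.49% and 7.72% over all genes. None of the 3 calls stood without the DMSO 8 h library, neither CYC1 nor NDUFA9 was called without the JQ1 8 h or the JQ1 4 h library, and 8 of the 80 genes were called without the AZ-5576 2 h library. Over all genes tested, 186 of 11663 were called without the DMSO 8 h library and 2698 of 11840 without the AZ-5576 2 h library. Highest under JQ1 were NDUFV3 (0.035 ± 0.031), NDUFA2 (0.035 ± 0.029) and ATP5PD (0.033 ± 0.029), none of which passed the test. NDUFA2 had 2429 at 0 h, while DMSO gave 2766, 2605 and 2314, JQ1 2106, 2754 and 3076 and AZ-5576 3021, 2328 and 1955, so JQ1 was below DMSO at 2 h and above it at 8 h.

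Both inhibitors were used at 1 µM for the same times, and they were compared directly. AZ-5576 gave lower slopes than JQ1 in 15 of the 80 genes and higher slopes in none, against 55% lower and 0.822% higher over all genes tested. UQCRFS1 (-0.184 ± 0.031), COX7A2L (-0.183 ± 0.032), NDUFS1 (-0.155 ± 0.039) and SDHA (-0.154 ± 0.034) had the lowest differences, with adjusted p-values of 3.0e-05, 5.6e-05, 0.0018 and 0.00056. CYC1 and NDUFA9, both lowered by JQ1, had differences of 0.014 ± 0.031 and -0.023 ± 0.031 between the inhibitors, which did not pass the test. The median difference was -0.007 over the 80 genes and -0.129 over all genes. With TMM scaling 63 of the 80 were higher under AZ-5576 than under JQ1 and 2 lower, against 21.8% and 26.5% over all genes. None of the 80 genes was called without the JQ1 8 h library, 1 without the AZ-5576 8 h library, and 9 without the 4 h libraries. The counts over all genes tested were 2619 of 11738, 1980 of 11831 and 6054 of 11834.

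Over the chase in DMSO alone, total RNA of 4 of the 80 genes went down and of 3 went up, against 3.78% and 24.5% of all genes tested. NDUFV3, NDUFA11, NDUFS8 and UQCR10 fell, with slopes of -0.091, -0.088, -0.083 and -0.071. COX7A2L rose by 0.169 ± 0.029 per hour (adjusted p = 0.00020), NDUFS1 by 0.154 ± 0.035 (adjusted p = 0.0025) and SDHD by 0.090 ± 0.033 (adjusted p = 0.043). COX7A2L was also the single gene that rose in JQ1 from 0 h (0.120), where 27 fell, against 15% higher and 17.3% lower over all genes tested. The 3 genes that rose in DMSO were all called lower under AZ-5576 than under DMSO, so the DMSO rise is part of those differences. From 0 h in AZ-5576, the slopes of COX7A2L (-0.063 ± 0.031), NDUFS1 (-0.079 ± 0.038) and SDHD (-0.047 ± 0.036) did not pass the test, while 43 of the 80 genes fell and none rose, against 69.2% and 0.356% of all genes tested. With TMM scaling 55 of the 80 fell in DMSO and 2 rose, against 15.5% and 17.1% over all genes. None of the 80 was called in DMSO without the DMSO 8 h library, and without the DMSO 4 h library 3 rises and no fall were called. Over all genes tested, 468 of 11663 and 2904 of 11802 were called in those fits.

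Labelled RNA reports how long molecules made before the chase persisted. Its slope includes dilution by growth and any incorporation after the wash, so the half-lives below are apparent. In DMSO, 57 of the 80 genes lost label past the threshold, against 88.3% of the 8817 genes tested (0.0454% gained), and all 80 slopes were below 0 with the fly scale. With TMM scaling, which moved the median of all genes from -0.223 to -0.011, 71 of the 80 were called above 0 and 2 below, against 22.9% and 26.3% over all genes. The median slope was -0.087 over the 80 genes, a half-life of 11.6 h, against 4.49 h at the median of all genes. Without the DMSO 8 h library 8 of the 80 were called, against 3370 of 8941 over all genes tested.

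By complex, the half-life at the median slope in DMSO was 7.78 h for complex II, 8.53 h for complex III, 10.6 h for complex I, 12.0 h for complex V and 15.3 h for complex IV. Within complex I it was 7.06 h for the core and 12.2 h for the accessory subunits. NDUFV3, a small accessory subunit beside the NADH site, had 593 fly-scaled labelled reads at 0 h, while DMSO gave 535, 227 and 108, JQ1 455, 243 and 103 and AZ-5576 516, 290 and 163. Its half-life in DMSO was 2.98 h (2.68 to 3.35 h at 1 SE of the slope). UQCRFS1 had 818 labelled reads at 0 h, while DMSO gave 835, 504 and 159, JQ1 704, 501 and 200 and AZ-5576 790, 482 and 236, a half-life of 3.09 h (2.79 to 3.48 h). These 2 genes lost label faster than NDUFA8 (4.90 h), NDUFB10 (5.55 h) and NDUFV1 (5.84 h), the next in order by slope among those named here.

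At the slow end stood ATP5MGL, ATP5MG, UQCRH and ATP5F1C. UQCRH had 2500 fly-scaled labelled reads at 0 h, while DMSO gave 3050, 2460 and 2198, JQ1 2406, 2303 and 2148 and AZ-5576 2994, 2487 and 2220. Its slope of -0.039 ± 0.028 and that of ATP5MG (-0.034 ± 0.029) did not pass the test, so these libraries could not tell their loss from none (UQCRH half-life 25.5 h, 14.8 to 91.4 h at 1 SE). ATP5MGL had few labelled reads, 57 fly-scaled at 0 h and 42 at 8 h in DMSO, and its slope of -0.002 ± 0.051 gives no usable half-life.

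Neither inhibitor changed the loss of label past the threshold in any of the 80 genes by edgeR's test, DESeq2 or limma-trend. For AZ-5576, 1.22% of all genes tested were called lower and 3.53% higher, and for JQ1 0.352% and 0.318%. At an unadjusted p under 0.05 edgeR gave 1 of the 80 genes for AZ-5576 and 0 for JQ1, against 1525 and 657 of all 8817 genes tested. Highest for AZ-5576 were NDUFV1 (0.077 ± 0.044) and NDUFV3 (0.071 ± 0.036), and lowest were COX7A2L (-0.068 ± 0.040), ATP5MGL (-0.067 ± 0.053) and NDUFB7 (-0.064 ± 0.055). NDUFB7 had only 66 fly-scaled labelled reads at 0 h and 25 at 8 h in AZ-5576. The half-life at the median slope (fly scale) was 14.5 h in AZ-5576, where 42 of the 80 lost label past the threshold (85.1% of all genes tested, with 0.034% above 0), and 10.5 h in JQ1, where 65 did (90.8%, with 0.113% of all genes above 0). With TMM scaling 2 of the 80 were called lower under AZ-5576 and none higher, against 3.75% and 2.68% over all genes.

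Labelled and unlabelled reads of the same genes moved apart under AZ-5576, and those of all human genes moved further apart. Summed labelled reads of the 80 genes per fly read were 107% of DMSO at 8 h, and summed unlabelled reads (total minus labelled) 77.8%. For all human reads these sums were 115% and 50.9%. Over the 80 genes, the median unlabelled level under AZ-5576 was 78.3% of DMSO at 8 h, against 19.9% over all genes tested. The median labelled level was 110%, against 121% over all genes tested. Unlabelled reads hold old molecules, molecules made after the wash and labelled molecules whose read shows no change. The sum of labelled reads at 2 h was above 0 h in DMSO (116%) and AZ-5576 (116%) but not in JQ1 (99.0%), so the straight lines miss this first step. In the same order, total reads of the 80 genes stood at 111%, 111% and 95.6% of 0 h. Labelled reads of all human genes stood at 107%, 105% and 88.1%. The step was thus not particular to labelled reads or to these genes.

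**Figure D4:**
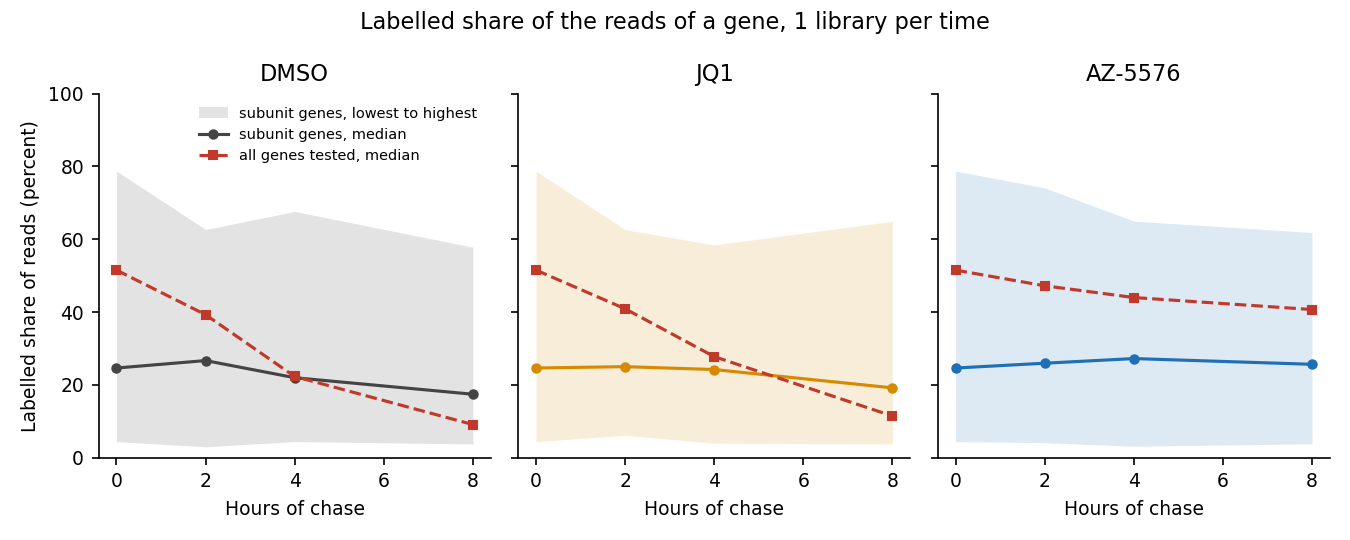
Labelled share of the reads of a gene (percent) over hours of chase in each arm, with the median (circles) and range (shaded) of the 80 subunit genes and the median of all genes tested (squares). The median of the subunit genes went from 24.6% at 0 h to 17.5% in DMSO and 25.7% in AZ-5576 at 8 h, while that of all genes tested went from 51.5% to 9.13% and 40.7%.

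After the pulse, the median labelled share was 24.6% over the 80 genes and 51.5% over all genes tested. At 8 h in DMSO the order was turned, with 17.5% against 9.13%. UQCRFS1 had a share of 68.9% at 0 h (interval 66.7% to 71.1%), and at 8 h DMSO left 10.0%, JQ1 16.5% and AZ-5576 61.8%. For NDUFS1 the corresponding shares were 45.6%, 9.5%, 16.5% and 53.7%, and for SDHD 63.8%, 21.4%, 27.4% and 61.4%. UQCRH stayed between 18.2% and 20.3% in all 10 libraries. NDUFA13 had the lowest share at 0 h, 4.45% (3.83% to 5.14%), and ATP5MGL the highest, 78.7% (69.8% to 86.0%), where its parent gene ATP5MG had 12.3% (11.9% to 12.7%). Only T in the sequenced end can carry the label: the percent of T in the last 300 bases was 17.7 in NDUFA13 and 38.7 in UQCRFS1. ATP5MGL and ATP5MG went the other way, with 29 and 35. Over the 80 genes it ran with the share at r = 0.42 (Spearman 0.40), and over 9775 genes at r = 0.51, a description over genes that share the same libraries.

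**Figure D5:**
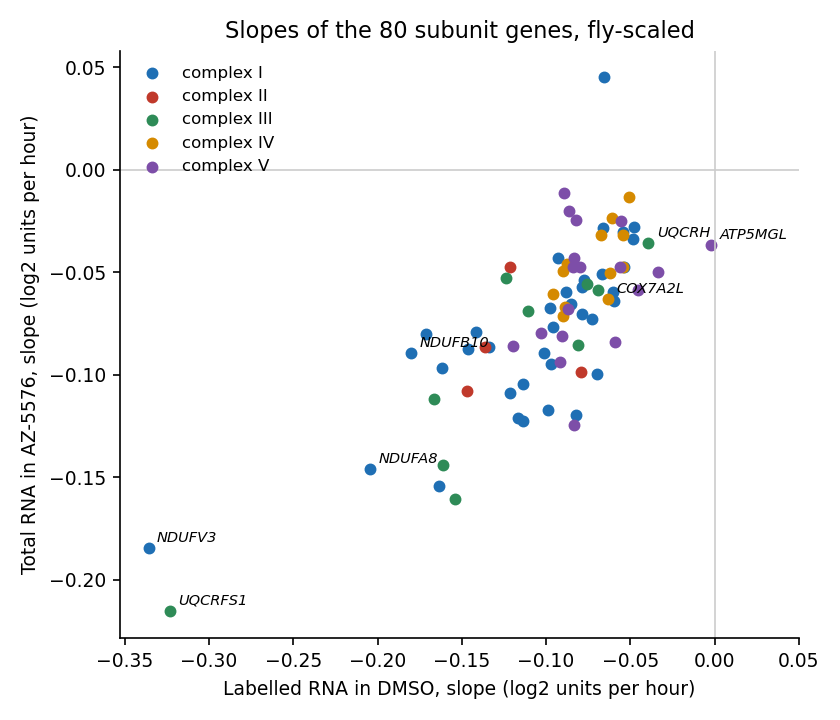
Slope of total RNA in AZ-5576 (vertical, log2 units per hour) against slope of labelled RNA in DMSO (horizontal, log2 units per hour), both fly-scaled, with 1 point per gene coloured by complex. NDUFV3 and UQCRFS1 lie at the lower left and UQCRH near the upper right of the cloud, with Pearson r = 0.76 over 80 genes.

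Genes that lost label faster in DMSO had lower slopes of total RNA in AZ-5576. Over the 80 genes Pearson r was 0.76 and Spearman rho 0.69, and over 8817 genes tested in both measures r was 0.71, so the relation was not particular to these genes. The points share the 0 h library and its fly scale, and genes are not independent replicates. NDUFV3 and UQCRFS1, with the 2 fastest losses, had AZ-5576 slopes of -0.185 and -0.215 per hour.

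The subunit genes have short mRNAs. Lengths are those of a protein-coding transcript tagged as principal (APPRIS) in GENCODE v29 (GRCh38), which gave lengths for 9779 of the genes tested. The subunit genes had a median coding length of 400.5 bases, against 1356 over these 9779 genes. Their median length after the stop codon was 217.5 bases, against 1056. Genes called lower under AZ-5576 had a median coding length of 795 bases (n = 23) and the others 342 bases (n = 57). Log2 coding length ran with the AZ-5576 difference to DMSO at r = -0.54 over the 80 genes and -0.22 over 9779 genes. Reads at 0 h ran with it at r = 0.50, and the called genes had a median of 1656 reads at 0 h against 3922. Log2 coding length and log2 reads at 0 h ran with each other at r = -0.27 over the 80 genes, and the part of either in the calls was not tested.

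The subunit genes act with other genes of the pathway, which were read from lists chosen with earlier results of these data known. Of 49 assembly factors, which help build the complexes and are not part of them, 35 were lower under AZ-5576 and 10 under JQ1, against 73.3% and 16.2% over all genes tested, with median differences of -0.136 and -0.053. COA7, needed for complex IV, had the lowest value under both inhibitors (-0.534 ± 0.051 and -0.232 ± 0.044). Of 17 regulators of mitochondrial gene expression 16 were lower under AZ-5576 and 5 under JQ1, led by PPRC1 (-0.526 ± 0.043) and PPARGC1B (-0.266 ± 0.048), 2 coactivators of the PGC-1 family. Of 13 other genes, tissue isoforms and carriers among them, 10 were lower under AZ-5576, and the median differences were -0.091 for AZ-5576 and -0.040 for JQ1. With TMM scaling the AZ-5576 counts were 7 lower and 14 higher for assembly factors, 10 lower and 2 higher for regulators, and 0 lower and 9 higher for the other genes, against 27.6% lower and 20.6% higher over all genes. The median slope of label in DMSO was -0.226 per hour for the assembly factors and -0.323 for the regulators, against -0.087 for the subunits. With TMM scaling these medians were -0.015, -0.109 and 0.126.

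The mRNAs of the subunits encoded by mitochondrial DNA, which a different RNA polymerase makes, gave another picture. Of 11 tested, 1 (MT-ND6, -0.125 ± 0.034) was lower under AZ-5576 and none was higher, and their median difference was 0.032. With TMM scaling 9 of the 11 were higher and none lower. Their label was lost at a median of -0.657 per hour in DMSO. Of their reads 10.2% were labelled at 0 h, and at 8 h DMSO left 0.269%, JQ1 0.327% and AZ-5576 0.352%. Their summed reads per fly read were 122% of 0 h at 8 h in DMSO and 137% in AZ-5576, where the nuclear subunit genes summed to 91.5% and 76.1%.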

How the data were processed

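Raw counts by gene came as 3 tables the authors deposited: total, nascent and fly. Per the labels' protocols, RNA was treated with IAA and read by QuantSeq FWD 3′ end sequencing. The tools named in the submitters' processing notes were Trim Galore 0.6.5, bedtools and bcl2fastq 2.17.1.14, with builds hg38 and dm6. The aligner, the annotation, the use of strand and the rule for labelled reads are not given in the sources used here, so genes that overlap others are uncertain.

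Counts with a mean of at least 20 were fitted with edgeR 4.0.16 (quasi-likelihood, R 4.3.3) on fly totals, and p-values were adjusted by Benjamini-Hochberg over all 11797 (total) or 8817 (labelled) genes at 0.05. The common biological coefficient of variation was 0.205 and 0.188, with 6 residual degrees of freedom. Alternatives used TMM, human library totals, other count minimums, time levels, the arms compared only, DESeq2 1.42.0, limma-trend (limma 3.58.1) and left-out libraries. In simulated counts for AZ-5576 against DMSO over 11797 genes, with 50 changed at each slope and the rest at 0, 60% of slopes of -0.2 and 4% of slopes of -0.1 were recovered, with 1 false call. The simulation gave all genes the same coefficient of variation of 0.2. In the data 73.3% of genes were called lower, which makes the adjusted threshold easier to pass, so these rates do not describe the real comparison.

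Members and lists were chosen with earlier results of these data known. The 32 genes named by rule are, per complex, the gene with most reads at 0 h, the ends of each slope ranking (4 for total AZ-5576, 3 for total JQ1, 4 for labelled DMSO, 3 for labelled AZ-5576), and a panel of 13 subunits. The total RNA rankings took only genes whose mean count reached 100. MT-CO3 and PET117 were not analysed here. One gene that the rule names is not reported here.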

Additional observations from a re-analysis of the deposited data

Results flagged for a closer look

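Reads were also found at processed pseudogenes of the subunit genes, which are not among the 80 genes. Those with a mean count of at least 20 were among all genes tested. Over the 10 libraries, ATP5F1EP2 had 26275 total reads, equal to 44.0% of the reads of ATP5F1E, the epsilon subunit of ATP synthase. COX6CP1 had 23692, against 23669 for COX6C, a subunit of complex IV, and ATP5MDP1 had 10607, or 38.3% of those of ATP5MD. These pseudogenes were singled out for their high read totals, and whether the reads came from the copies or from their parent genes was not tested. In all, 7 members had named copies with more than 10% of their own reads. With the copies added to their parent genes, 23 of the 80 genes were still called lower under AZ-5576, the same 23. In that fit 8644 of all 11772 genes tested were called lower. Levels of COX6C, ATP5F1E and ATP5MD are uncertain for this reason.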

How the results depend on the processing

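No paired analysis was possible by replicate number because each condition has 1 library, and the fit with time levels matches the arms by time. Over all 11797 genes, time levels called 291 for AZ-5576 against DMSO, 0 for JQ1 against DMSO and 140 for AZ-5576 against JQ1. Counts below are of the 80 genes called (lower and higher). For AZ-5576 against DMSO they were 23 as reported, 67 with TMM (1 and 66), 60 with human library totals (10 and 50), 0 with time levels, 3 without all 8 h libraries and 4 to 26 with 1 library left out. The 26 were called without the AZ-5576 2 h library, where 9008 of 11840 genes tested were called. For JQ1 the counts of the 80 were 3, then 6 with TMM (1 and 5), 0 with time levels, 1 without all 4 h libraries, 0 without all 8 h libraries, 0 to 8 with 1 library left out, and 10 without the 0 h and AZ-5576 2 h libraries, a setting chosen after seeing the data. All genes gave 1034 of 11834 without all 4 h libraries and 763 of 11617 without all 8 h libraries. Without the 0 h and AZ-5576 2 h libraries they gave 2918 of 11873. For AZ-5576 against JQ1 the counts of the 80 were 15, then 65 with TMM (2 and 63), 49 with library totals (6 and 43), 0 with time levels, 9 without all 4 h libraries, 0 without all 8 h libraries and 0 to 16 with 1 library left out. With library totals 43.2% of all genes were lower and 8.00% higher. All genes gave 1299 of 11617 without all 8 h libraries, and 7074 of 11840 without the AZ-5576 2 h library, the setting with 16. Over time in DMSO the counts of the 80 were 7, then 57 with TMM (55 and 2), 31 with library totals (28 and 3), 4 with no filter on low counts, 3 without all 4 h libraries, 0 without all 8 h libraries and 0 to 8 with 1 library left out. With library totals 8.46% of all genes were lower and 27.9% higher. All genes gave 3123 of 30316 with no filter, 2559 of 11834 without all 4 h libraries and 870 of 11617 without all 8 h libraries. The 8 were called without the JQ1 2 h or the AZ-5576 2 h library, where all genes gave 2911 of 11795 and 3992 of 11840. Label loss in DMSO was called in 57 of the 80, then 73 with TMM (2 and 71), 58 with library totals (2 and 56), 10 with the arms compared only, 24 without all 4 h libraries, 1 without all 8 h libraries and 8 to 74 with 1 library left out. With library totals 38.3% of all genes were lower and 11.4% higher. All genes gave 5727 of 8805 with the arms compared only, 7075 of 8916 without all 4 h libraries and 1304 of 9153 without all 8 h libraries. The 74 were called without the 0 h library, where all genes gave 7968 of 8677. The labelled AZ-5576 difference was called in 0, and in 2 with TMM. DESeq2 and limma-trend gave 24 and 23 for AZ-5576 and 3 and 3 for JQ1. Of 11797 genes they called 8729 and 8741 for AZ-5576 and 2389 and 2047 for JQ1.

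Of the 80 genes, 72 AZ-5576 differences of total RNA were below 0 as reported, 4 with TMM and 16 with library totals. Of the genes named by rule, those that turned above 0 (log2 units per hour) were, with TMM, NDUFA2 0.147, NDUFA8 0.051, NDUFA9 0.056, NDUFB10 0.152, NDUFB7 0.122, NDUFB9 0.146, NDUFV3 0.081, NDUFV1 0.140, SDHA 0.023, SDHB 0.060, SDHC 0.094, SDHD 0.036, UQCR10 0.134, UQCRH 0.164, CYC1 0.086, COX4I1 0.161, COX7A2 0.158, ATP5F1C 0.103, ATP5MC1 0.144, ATP5MC2 0.152, ATP5MC3 0.130, ATP5MG 0.132 and ATP5MGL 0.127. With library totals they were NDUFA2 0.062, NDUFB10 0.067, NDUFB7 0.037, NDUFB9 0.061, NDUFV1 0.055, SDHC 0.00998, UQCR10 0.049, UQCRH 0.079, CYC1 0.00157, COX4I1 0.076, COX7A2 0.073, ATP5F1C 0.019, ATP5MC1 0.059, ATP5MC2 0.067, ATP5MC3 0.045, ATP5MG 0.046 and ATP5MGL 0.043. The slope of label in DMSO was below 0 in 80 of the 80 as reported, 2 with TMM and 6 with library totals. Of the named genes it turned above 0 with TMM in NDUFA8 0.00772, NDUFB10 0.031, UQCRH 0.174, ATP5F1C 0.167, ATP5MG 0.180 and ATP5MGL 0.206, and with library totals in UQCRH 0.124, ATP5F1C 0.117, ATP5MG 0.130 and ATP5MGL 0.157. TMM and library totals are centred on the human genes, most of which were lower per fly read in AZ-5576. With 1 library left out, 55 of the 80 AZ-5576 differences were below 0 without the AZ-5576 8 h library, and among the named genes the difference ran on both sides of 0: NDUFA13 from -0.015 to 0.047, NDUFA2 from -0.053 to 0.011, NDUFB7 from -0.077 to 0.014, COX4I1 from -0.025 to 0.014, ATP5PD from -0.00752 to 0.044. The JQ1 difference did so for NDUFA2 from -0.00342 to 0.044, NDUFV3 from -0.018 to 0.113. The label slope in DMSO did so for ATP5MGL from -0.024 to 0.107. With sets of libraries left out, signs also turned for the JQ1 difference of NDUFA2 (-0.020 without all 8 h libraries), the AZ-5576 difference of CYC1 (0.012 without all 8 h libraries), the label slope of ATP5MGL (0.089 without all 8 h libraries), the label slope of ATP5MGL (0.017 without 0 h and AZ-5576 2 h). The cause was not tested for any of these changes. Few labelled reads limit the label slopes of ATP5MGL and NDUFB7.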
